A study of Mus musculus with 9 samples.

Results

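The genes described here are those that hold, sense and move zinc, copper and magnesium in mouse macrophages: the metallothioneins Mt1 to Mt4, the zinc sensor Mtf1, the zinc exporters (Slc30a), the zinc importers (Slc39a), the copper transporters (Slc31a) and the magnesium transporters (Slc41a). All genes of these names with a probe set annotated to a single gene were taken, 34 of the 18193 genes measured, and each was represented by the brightest of its probe sets over the 9 arrays. The arrays came from bone marrow derived macrophages of C57BL6 mice, 6 to 12 weeks old, on day 6 of culture, the last day of it without the L929 conditioned medium in which the cells had been grown. All 3 groups were primed with LPS (bacterial lipopolysaccharide, 33 ng/mL) for 3 h. For the following 6 h the LPS+TET group received TET Br (triethyltin bromide, 10 µM), the LPS+TMT group TMT OH (trimethyltin hydroxide, 1.25 µM) and the LPS group sterile saline, with 3 biological replicates each. Both compounds are organotins, with ethyl or methyl groups on tin, and they were given at different doses, so that a difference between them is one of compound and dose together. The series is about mRNA changes while organotins activate the NLRP3 inflammasome, a sensor complex that leads to release of IL-1 beta. No group without LPS was analysed here.

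Zinc in the cytosol of a macrophage is kept low and is buffered by metallothioneins, small cysteine-rich proteins that bind zinc and copper. Slc30a proteins lower cytosolic zinc by moving it out of the cell or into organelles, and Slc39a proteins raise it by bringing zinc in or releasing it from stores. When free zinc rises, the transcription factor MTF-1 binds metal response elements and raises Mt1, Mt2 and Slc30a1. In macrophages LPS is known to change several of these transporters and to raise metallothioneins, and withholding or loading metals is one way in which these cells act on microbes.

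The promoters of genes that MTF-1 is known to control, and that of the member with the largest fall under TMT (Slc30a4), are shown so that the letters can be seen beside the values, with no claim that one sets the other. They are RefSeq windows from 250 bases before to 50 after the gene start, and capitals mark each match to the core of the metal response element, spelled TGCACNC or TGCGCNC and searched on both strands, with overlapping matches counted.
Mt1 (GRCm38.p6, chr8:94178839-94179138, plus strand): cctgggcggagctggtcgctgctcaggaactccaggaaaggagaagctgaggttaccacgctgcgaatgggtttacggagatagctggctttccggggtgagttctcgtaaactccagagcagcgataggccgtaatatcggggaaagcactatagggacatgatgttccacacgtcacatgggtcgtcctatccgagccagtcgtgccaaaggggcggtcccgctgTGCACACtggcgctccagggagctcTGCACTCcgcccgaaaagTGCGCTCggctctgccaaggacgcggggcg
Mt2 (GRCm38.p6, chr8:94172368-94172667, plus strand): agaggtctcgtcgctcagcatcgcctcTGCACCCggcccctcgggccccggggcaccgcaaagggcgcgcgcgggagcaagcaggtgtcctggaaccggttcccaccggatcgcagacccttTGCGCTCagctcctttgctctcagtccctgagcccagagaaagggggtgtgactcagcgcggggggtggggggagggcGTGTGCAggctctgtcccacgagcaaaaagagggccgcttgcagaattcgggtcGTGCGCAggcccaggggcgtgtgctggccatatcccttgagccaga
Slc30a1 (GRCm38.p6, chr1:191906531-191906830, plus strand): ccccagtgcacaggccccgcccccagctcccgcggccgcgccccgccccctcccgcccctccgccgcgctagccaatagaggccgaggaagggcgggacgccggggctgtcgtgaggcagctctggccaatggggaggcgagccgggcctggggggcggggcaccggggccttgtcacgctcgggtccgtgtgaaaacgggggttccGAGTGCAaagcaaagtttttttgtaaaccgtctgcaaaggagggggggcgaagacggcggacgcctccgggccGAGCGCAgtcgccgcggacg
Slc30a4 (GRCm38.p6, chr2:122702614-122702913, minus strand): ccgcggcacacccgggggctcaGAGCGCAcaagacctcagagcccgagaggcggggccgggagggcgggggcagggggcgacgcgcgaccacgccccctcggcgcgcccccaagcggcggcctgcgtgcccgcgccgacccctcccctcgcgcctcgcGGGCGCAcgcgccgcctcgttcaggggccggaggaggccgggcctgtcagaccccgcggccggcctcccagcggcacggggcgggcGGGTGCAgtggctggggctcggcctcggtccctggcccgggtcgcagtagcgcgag

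Mt1 had 3 matches, Mt2 had 4, Slc30a1 had 2 and Slc30a4 had 3 in these 300 bases. Of all 27025 genes with such a window, 28.2% had at least 1 match and 2.27% had at least 3. Of the 30 members with a window, 19 had at least 1 match and 4 had at least 3, the fourth being Slc30a10, where 2 matches overlap. No window was used for Slc30a8, Slc39a4, Slc39a6 or Slc39a14. Genes with several start sites had more chances of a match, and a match describes letters only.

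Values are log2 signals and differences between groups are log2 fold changes, so that a difference of 1 is a doubling. A gene was called at an adjusted p under 0.05 in a limma fit over all genes and arrays. The cells were checked by marker genes. All 8 measured macrophage markers lay at or above the median level of genes (6.82) in LPS. Their mean log2 signal was 12.28 to 12.41 in LPS+TET, 12.32 to 12.64 in LPS+TMT and 12.50 to 12.55 in LPS. Single markers moved in both directions. Under TET Mertk was called higher and Adgre1, Csf1r, Lyz2 and Cd14 lower. Under TMT Itgam and Fcgr1 were called higher and Cd14 and Mertk lower. Of 7 lists for other marrow cells, those of B cells, T and NK cells, erythroid, dendritic and mast cells had 0 members above that level in LPS, the neutrophil list had 2 of 6 (Camp and Ngp) and the stromal list 1 of 5 (Col1a1). The neutrophil list averaged 5.97 to 6.12 in LPS+TET, 5.83 to 5.99 in LPS+TMT and 6.25 to 6.38 in LPS, and the stromal list 6.64 to 7.05 in LPS+TET, 6.21 to 6.66 in LPS+TMT and 6.26 to 6.38 in LPS. The B cell list averaged 5.65 to 5.77 in LPS+TET, 5.16 to 5.54 in LPS+TMT and 5.31 to 5.37 in LPS, the T and NK cell list 5.01 to 5.06 in LPS+TET, 4.64 to 4.77 in LPS+TMT and 4.67 to 4.81 in LPS, and the erythroid list 5.67 to 5.86 in LPS+TET, 5.35 to 5.41 in LPS+TMT and 5.31 to 5.49 in LPS. The mast cell list averaged 4.36 to 4.56 in LPS+TET, 4.17 to 4.33 in LPS+TMT and 4.28 to 4.35 in LPS. In these dim lists LPS+TET lay above both other groups, while in the dendritic cell list, with 5.43 to 5.89 in LPS+TET, 5.28 to 5.51 in LPS+TMT and 5.28 to 5.5 in LPS, the groups overlapped. The part of these shifts in the results was not tested. The LPS+TET arrays had a narrower signal range (interquartile range 3.45 to 3.55) than the LPS+TMT arrays (3.78 to 3.86) and the LPS arrays (3.83 to 3.88), and the SD over probe sets of the difference between replicates was 0.379 to 0.419 in LPS+TET, 0.185 to 0.312 in LPS+TMT and 0.198 to 0.213 in LPS. Replicates are not said to come from separate mice, so p-values measure the spread between these cultures, and with 3 arrays a group the smallest p of an exact permutation test is 0.1.

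Both organotins moved metal-handling genes in both directions. Under TET 23 of the 34 members were called, 10 higher and 13 lower, where 50.8% of all genes were called (27.4% higher and 23.4% lower). Under TMT 14 of 34 were called, 5 higher and 9 lower, where 27.8% of all genes were called (14.3% higher and 13.4% lower). By their mean over the 9 arrays 26 members lay at or above the median level of genes, Slc39a2 and Mt3 only through LPS+TET, and no gene was left out of the fit for a low signal. Of these 26 members, 80.8% were called under TET and 53.8% under TMT. Slc39a2 and Mt3 are among those called under TET, so that share partly counts the rise that let them in. Of all genes at or above that level, 64.9% were called under TET and 46.2% under TMT. The median difference of the members was −0.0072 under TET and −0.0026 under TMT, beside 0.094 and 0.012 over all genes. The arrays of LPS+TET and LPS did not overlap in 23 members, where 58.7% of all genes did not, and those of LPS+TMT and LPS in 17 members, where 44.7% of all genes did not. All 23 calls under TET were kept when quantile normalization was applied again, and 22 after cyclic loess between arrays. With arrays centred on their medians 21 were kept, without Mt3 and Slc30a5. In bulk RNA, fewer cells of a type and less RNA per cell cannot be told apart.

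Of the 4 metallothioneins, 2 were called lower and 0 higher under TMT (Mt1 and Mt2), and 2 higher and 0 lower under TET (Mt3 and Mt4). Of all genes 13.4% were lower and 14.3% higher under TMT, and 27.4% were higher and 23.4% lower under TET. Mt2, an inducible zinc-binding metallothionein, read 14.07, 14.17 and 14.10 in LPS+TET, 13.29, 13.12 and 13.25 in LPS+TMT, and 14.09, 14.16 and 14.12 in LPS. All 3 LPS+TMT arrays lay below the other 6, and the LPS+TET arrays overlapped LPS. Mt2 fell 1.87-fold under TMT (−0.91, SE 0.084, adjusted p = 2.1e-05), while the 95% interval of its difference under TET was −0.20 to 0.18 (adjusted p = 0.92).

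Mt1, its neighbour on the chromosome and the other inducible form, read 13.68, 13.64 and 13.59 in LPS+TET, 12.87, 13.01 and 12.83 in LPS+TMT, and 13.49, 13.60 and 13.50 in LPS. All 3 LPS+TMT arrays again lay below the other 6, and LPS+TET overlapped LPS. Mt1 fell 1.54-fold under TMT (−0.63, SE 0.086, adjusted p = 3.1e-04), and the difference under TET was 0.10 (adjusted p = 0.33). Against LPS+TMT, LPS+TET was higher for Mt2 (0.89, SE 0.084, adjusted p = 1.2e-05) and for Mt1 (0.73, SE 0.086, adjusted p = 5.7e-05). The Mt1 probe set used may bind related transcripts. The second Mt1 probe set, which carries no such mark, read 6.95, 6.72 and 6.60 in LPS+TET, 6.62, 6.47 and 6.50 in LPS+TMT, and 7.94, 7.97 and 8.08 in LPS. There both organotin groups lay below LPS without overlap. The difference was −1.24 under TET (adjusted p = 1.0e-05) and −1.47 under TMT (adjusted p = 7.6e-06). Both Mt1 probe sets thus fell under TMT and they disagreed under TET, and in the second LPS+TET and LPS+TMT did not differ past the threshold (0.23, adjusted p = 0.11).

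Mt3 and Mt4 are metallothioneins with a narrower tissue range. Mt3, best known from brain, read 7.03, 6.95 and 7.18 in LPS+TET, 6.78, 6.70 and 6.70 in LPS+TMT, and 6.66, 6.70 and 6.86 in LPS. The LPS+TET arrays lay above the other 6. Mt3 rose slightly under TET (0.31, SE 0.095, adjusted p = 0.021), and it reached the median level of genes only through LPS+TET. That call was not kept without LPS+TET replicate 3 (0.25, adjusted p = 0.057), LPS replicate 1 (0.27, adjusted p = 0.079) or LPS replicate 2 (0.29, adjusted p = 0.072), nor with arrays centred on their medians (0.23, adjusted p = 0.077) or weighted (0.27, adjusted p = 0.061). Mt4, a metallothionein of stratified epithelia, averaged 5.20 ± 0.18 in LPS+TET, 4.21 ± 0.14 in LPS+TMT and 4.20 ± 0.089 in LPS (SD, n = 3 each). Mt4 rose 2.00-fold under TET (1.00, SE 0.12, adjusted p = 6.2e-05) at a signal not shown to lie above background. The dim B cell, T and NK cell, erythroid and mast cell lists also averaged higher in LPS+TET, though 0 of 4 mast cell genes were called. Of other dim members, Slc39a12 was called higher under TET. Slc30a2, Slc30a8 and Slc30a10 were not called, with differences of 0.046, −0.0034 and 0.012. A part of shifts at dim signals in the Mt4 difference was not tested. Under TMT the differences of Mt3 and Mt4 were −0.018 and 0.0039 (adjusted p = 0.93 and 0.99). In RefSeq order the 4 genes stand side by side on chromosome 8, as Mt4, Mt3, Mt2 and Mt1 between Bbs2 and Nup93.

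Mtf1, the zinc-sensing transcription factor, was higher under TET in the probe set used. It read 9.81, 9.43 and 9.34 in LPS+TET, 8.47, 8.71 and 8.39 in LPS+TMT, and 8.10, 8.34 and 8.38 in LPS. The LPS+TET arrays lay above the other 6, and the rise was 2.39-fold (1.26, SE 0.14, adjusted p = 5.3e-05), against a difference of 0.25 under TMT (adjusted p = 0.26). It was also higher in LPS+TET than in LPS+TMT (1.01, SE 0.14, adjusted p = 2.2e-04). Mtf1 has 5 probe sets, and the rise under TET was called in 2 of them. The mean over all 5 gave a difference of 0.44 under TET (adjusted p = 0.0017). The others were −0.035, 0.085 and 0.27 under TET (adjusted p = 0.82, 0.59 and 0.10).

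Among the 10 zinc exporters, 2 were called higher and 4 lower under TET, and 1 higher and 2 lower under TMT. That is 60% of them called under TET, where 50.8% of all genes were, and 30% under TMT, where 27.8% were. The plasma membrane exporter Slc30a1 rose under both compounds, and the vesicle exporter Slc30a4 fell under both.

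Slc30a1 (ZnT1), which pumps zinc out of the cell and is a known MTF-1 target, read 10.41, 10.67 and 10.79 in LPS+TET, 10.62, 10.54 and 10.51 in LPS+TMT, and 9.94, 9.92 and 9.79 in LPS. Every array of either organotin lay above all LPS arrays, and LPS+TET overlapped LPS+TMT. Slc30a1 rose 1.67-fold under TET (0.74, SE 0.11, adjusted p = 3.0e-04) and 1.59-fold under TMT (0.67, SE 0.11, adjusted p = 9.3e-04). Its second probe set read 11.18, 10.96 and 11.04 in LPS+TET, 9.43, 9.39 and 9.32 in LPS+TMT, and 8.84, 9.03 and 8.61 in LPS. Here too both groups lay above LPS, but the TET rise was 2.23 (adjusted p = 3.4e-07) and LPS+TET exceeded LPS+TMT by 1.68 (adjusted p = 2.3e-06), beside 0.066 (adjusted p = 0.63) in the probe set used. Under TMT, Slc30a1 was higher while Mt1 and Mt2, which share MTF-1 as a known regulator, were lower. A part of MTF-1 in these differences was not tested.

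Slc30a4 (ZnT4), which loads zinc into endosomal and secretory vesicles, read 10.56, 10.42 and 10.40 in LPS+TET, 8.63, 8.74 and 8.23 in LPS+TMT, and 11.07, 11.22 and 11.20 in LPS. The 3 groups did not overlap at any point. It fell 6.20-fold under TMT (−2.63, SE 0.13, adjusted p = 4.2e-07), the 50th largest fall of the 18193 genes, and 1.63-fold under TET (−0.71, SE 0.13, adjusted p = 0.0013). LPS+TET was higher than LPS+TMT by 1.93 (adjusted p = 1.4e-06).

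**Figure D1:**
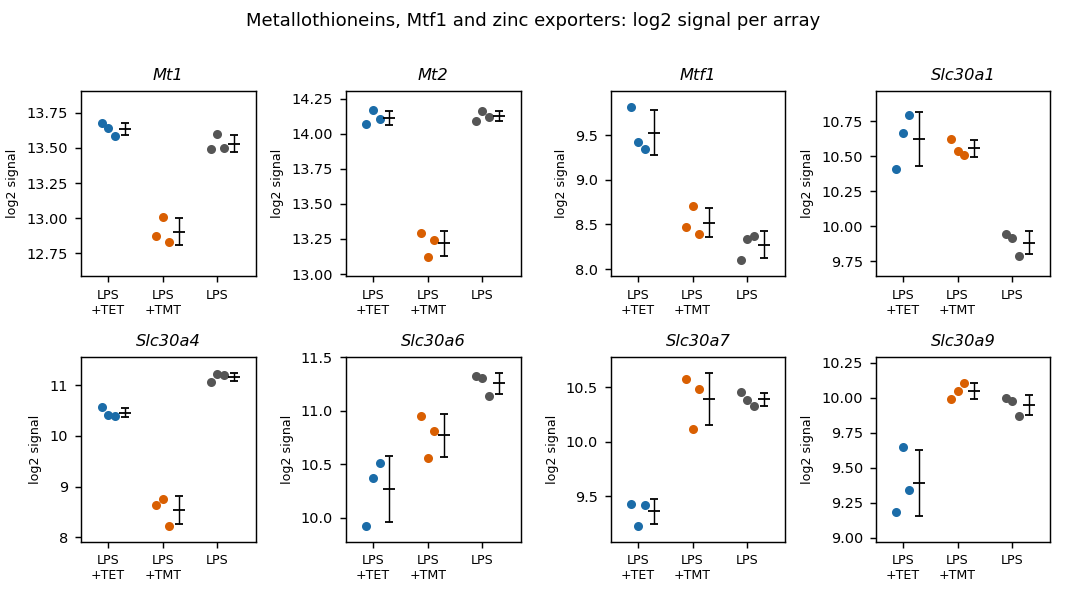
Log2 signal (vertical axis, a scale of its own in each panel) of 2 metallothioneins, Mtf1 and 5 zinc exporters in LPS+TET, LPS+TMT and LPS arrays; points are the 3 arrays of a group and the bar beside them is the mean ± SD. Mt1 and Mt2 are lowest in LPS+TMT, Slc30a1 is higher in both organotin groups than in LPS, and Slc30a4 falls to 8.23 to 8.74 in LPS+TMT against 11.07 to 11.22 in LPS.

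The exporters of the Golgi and secretory pathway differed among themselves. Slc30a7 (ZnT7), which supplies zinc to enzymes in the Golgi, read 9.43, 9.23 and 9.42 in LPS+TET, 10.57, 10.12 and 10.49 in LPS+TMT, and 10.46, 10.38 and 10.33 in LPS. It fell 2.04-fold under TET (−1.03, SE 0.12, adjusted p = 7.9e-05), with no overlap with the other groups, and its difference under TMT was 0.0037 (adjusted p = 0.99). Its second probe set gave −1.44 under TET (adjusted p = 6.3e-04).

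Slc30a5 and Slc30a6 encode partners of a heterodimer that loads zinc into enzymes of the early secretory pathway. Slc30a6 read 9.92, 10.37 and 10.51 in LPS+TET, 10.95, 10.55 and 10.81 in LPS+TMT, and 11.33, 11.30 and 11.14 in LPS. The groups did not overlap. Slc30a6 fell 1.98-fold under TET (−0.99, SE 0.16, adjusted p = 5.0e-04) and 1.40-fold under TMT (−0.49, SE 0.16, adjusted p = 0.043). The call under TMT was lost without LPS+TMT replicate 2 (−0.38, adjusted p = 0.15) or 3 (−0.50, adjusted p = 0.086), LPS+TET replicate 2 (−0.49, adjusted p = 0.052) or LPS replicate 1 (−0.45, adjusted p = 0.13), 2 (−0.46, adjusted p = 0.12) or 3 (−0.54, adjusted p = 0.066). Slc30a5 read 9.41, 9.74 and 9.83 in LPS+TET, 9.21, 9.40 and 9.20 in LPS+TMT, and 9.16, 9.33 and 9.36 in LPS. The LPS+TET arrays lay above the other 6 by a very narrow margin, with LPS+TET replicate 1 at 9.406 and LPS+TMT replicate 2 at 9.404. The rise of Slc30a5 under TET was called at 0.37 (SE 0.12, adjusted p = 0.029), and its difference under TMT was −0.014 (adjusted p = 0.96). The call under TET was lost without LPS+TET replicate 2 (0.33, adjusted p = 0.078) or 3 (0.29, adjusted p = 0.089) or LPS replicate 1 (0.31, adjusted p = 0.11) or 2 (0.40, adjusted p = 0.057), and with arrays centred on their medians (0.29, adjusted p = 0.088). Partners of this heterodimer thus differed in sign under TET, though the call of Slc30a5 was lost without any 1 of 4 arrays.

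Slc30a9, a zinc transporter of mitochondria, read 9.19, 9.65 and 9.34 in LPS+TET, 9.99, 10.05 and 10.11 in LPS+TMT, and 10.00, 9.98 and 9.87 in LPS. All LPS+TET arrays lay below the rest, and it fell 1.47-fold under TET (−0.55, SE 0.12, adjusted p = 0.0031). The difference under TMT was 0.10 (adjusted p = 0.62). After cyclic loess between arrays the TET fall was −0.29 (adjusted p = 0.066). Slc30a2, Slc30a3, Slc30a8 and Slc30a10, whose products serve mammary gland, synaptic vesicles, insulin granules and manganese export, were not called in any comparison. Their group means ran from 3.50 to 5.99, below the median level of genes.

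Among the 14 zinc importers, 5 were called higher and 5 lower under TET, where 27.4% of all genes were higher and 23.4% lower, and 1 higher and 5 lower under TMT, where 14.3% were higher and 13.4% lower. The importers included the largest rise of any member, Slc39a2 under TET. Slc39a8 and Slc39a6 were called higher under TET and lower under TMT, Slc39a11 and Slc39a14 were called lower under both, and Slc39a10 had the largest fall of the importers under TMT.

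Slc39a2 (ZIP2), a plasma membrane zinc importer, read 9.41, 9.07 and 9.29 in LPS+TET, 5.94, 5.98 and 5.71 in LPS+TMT, and 5.70, 6.11 and 5.86 in LPS. All 3 LPS+TET arrays stood at 9.07 or above, and none of the other 6 arrays exceeded 6.11. It rose 10.3-fold under TET (3.37, SE 0.13, adjusted p = 4.4e-08), the 91st largest rise of 18193 genes, and its difference under TMT was −0.0088 (95% interval −0.31 to 0.29). It has 1 probe set and reached the median level of genes only through LPS+TET, so its fold is measured from a signal not shown to lie above background.

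Slc39a8 (ZIP8), which carries zinc, manganese and iron and is a known NF-kB target in activated myeloid cells, read 10.90, 11.02 and 11.09 in LPS+TET, 8.72, 9.03 and 8.70 in LPS+TMT, and 10.24, 10.18 and 10.18 in LPS. The 3 groups did not overlap, with LPS between the organotin groups. It rose 1.75-fold under TET (0.81, SE 0.11, adjusted p = 1.5e-04) and its fall under TMT was 2.60-fold (−1.38, SE 0.11, adjusted p = 6.9e-06). LPS+TET exceeded LPS+TMT 4.54-fold (2.18, SE 0.11, adjusted p = 1.7e-07). Both of its probe sets were called in both directions, the second with 0.47 under TET and −1.20 under TMT.

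Slc39a14 (ZIP14), its close relative that also carries iron and manganese, fell under both compounds. Slc39a14 read 9.17, 9.35 and 9.78 in LPS+TET, 9.72, 9.30 and 9.78 in LPS+TMT, and 10.93, 10.83 and 10.88 in LPS. Both organotin groups lay below LPS and overlapped each other. It fell 2.73-fold under TET (−1.45, SE 0.17, adjusted p = 5.7e-05) and 2.43-fold under TMT (−1.28, SE 0.17, adjusted p = 2.2e-04), and all 4 of its probe sets were called lower under both, with differences from −2.44 to −0.50 under TET and from −1.61 to −0.81 under TMT. The difference between LPS+TET and LPS+TMT was −0.17 (95% interval −0.54 to 0.21).

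Slc39a6 and Slc39a10 encode ZIP6 and ZIP10, which are known to form a heteromeric importer at the plasma membrane. Slc39a10 read 8.78, 9.43 and 9.60 in LPS+TET, 7.34, 7.36 and 7.45 in LPS+TMT, and 9.55, 9.83 and 9.59 in LPS. LPS+TMT lay more than 1 log2 unit below every other array. It fell 4.83-fold under TMT (−2.27, SE 0.18, adjusted p = 8.6e-06), the 80th largest fall of all genes. Under TET its difference was −0.38 (95% interval −0.79 to 0.026, adjusted p = 0.11), with LPS+TET replicate 1 lowest. The TET difference was called without LPS+TET replicate 3 (−0.55, adjusted p = 0.030) and in the second probe set (−0.65, adjusted p = 8.3e-04), which also gave −2.06 under TMT.

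Slc39a6 read 12.32, 12.56 and 12.79 in LPS+TET, 11.62, 11.42 and 11.73 in LPS+TMT, and 12.07, 11.96 and 12.02 in LPS. The 3 groups did not overlap. It rose 1.45-fold under TET (0.54, SE 0.13, adjusted p = 0.0060) and its fall under TMT was 1.34-fold (−0.43, SE 0.13, adjusted p = 0.033), and LPS+TET exceeded LPS+TMT by 0.97 (adjusted p = 1.5e-04). The call under TMT was lost without LPS+TMT replicate 1 (−0.44, adjusted p = 0.075) or 2 (−0.34, adjusted p = 0.11) or LPS replicate 1 (−0.40, adjusted p = 0.11), 2 (−0.45, adjusted p = 0.066) or 3 (−0.42, adjusted p = 0.089). Of its 4 probe sets, 3 were called higher under TET and 2 lower under TMT.

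**Figure D2:**
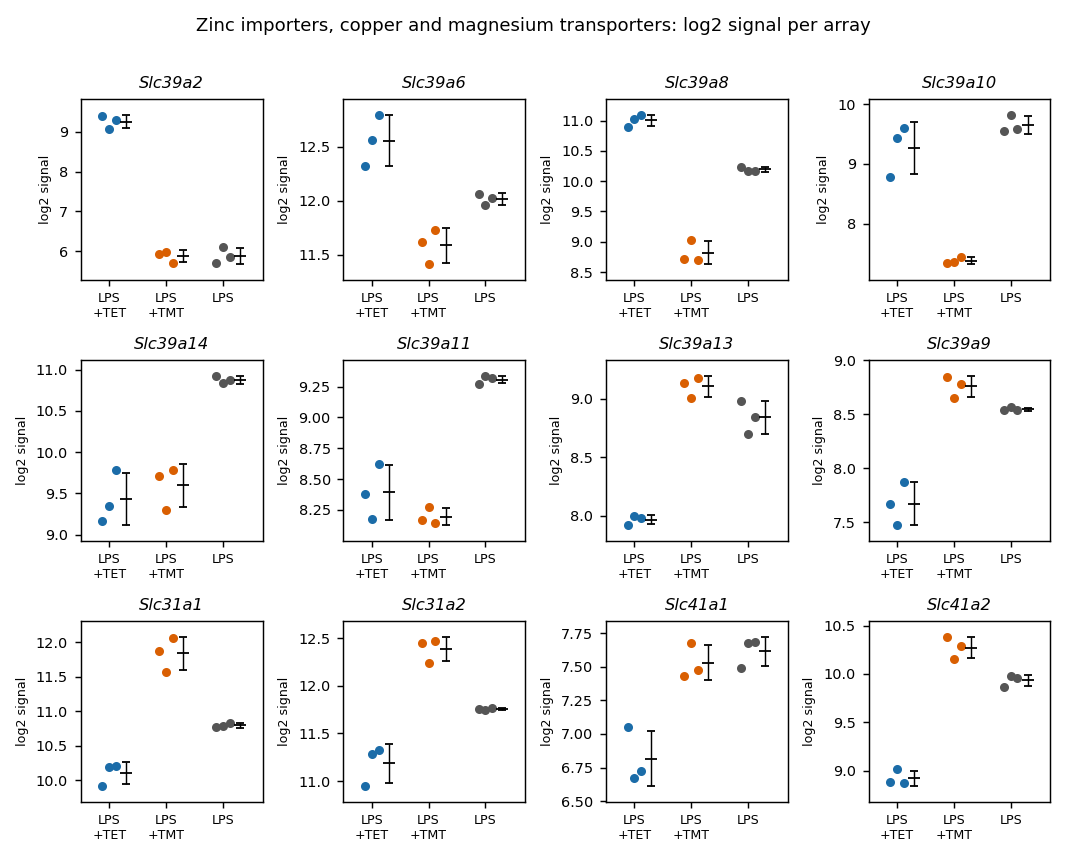
Log2 signal (vertical axis, a scale of its own in each panel) of 8 zinc importers and of copper and magnesium transporters in LPS+TET, LPS+TMT and LPS arrays; points are the 3 arrays of a group and the bar beside them is the mean ± SD. Slc39a2 stands at 9.07 to 9.41 in LPS+TET against 5.70 to 6.11 in LPS, and Slc39a8, Slc39a6, Slc31a1, Slc31a2 and Slc41a2 have LPS between the organotin groups.

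The importers of the Golgi, endoplasmic reticulum and vesicles were called in either direction. Slc39a11 (ZIP11, found in the Golgi) read 8.38, 8.17 and 8.62 in LPS+TET, 8.17, 8.27 and 8.15 in LPS+TMT, and 9.27, 9.33 and 9.32 in LPS. It fell 1.89-fold under TET (−0.92, SE 0.11, adjusted p = 9.5e-05) and 2.16-fold under TMT (−1.11, SE 0.11, adjusted p = 4.2e-05), with every organotin array below every LPS array. Slc39a7 (ZIP7), which releases zinc from the endoplasmic reticulum, read 10.50, 10.75 and 10.55 in LPS+TET, 10.61, 10.53 and 10.70 in LPS+TMT, and 10.19, 10.24 and 10.25 in LPS. Every organotin array lay above every LPS array. It was the one importer called higher under both compounds, by 0.38 under TET (adjusted p = 0.0071) and 0.39 under TMT (adjusted p = 0.010). The 95% interval of the difference between LPS+TET and LPS+TMT was −0.22 to 0.20. The probe sets of Slc39a7 and Slc39a11 may bind related transcripts.

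Slc39a13 (ZIP13, of Golgi and vesicles) read 7.92, 7.99 and 7.98 in LPS+TET, 9.13, 9.01 and 9.18 in LPS+TMT, and 8.98, 8.69 and 8.85 in LPS. It fell 1.84-fold under TET (−0.88, SE 0.10, adjusted p = 4.4e-05), and its difference under TMT was 0.27 (adjusted p = 0.068), which passed without LPS replicate 1 (0.34, adjusted p = 0.0497), after cyclic loess (0.30, adjusted p = 0.038) and with array weights (0.29, adjusted p = 0.0026). Slc39a9 (ZIP9, of the Golgi and cell surface) read 7.67, 7.48 and 7.87 in LPS+TET, 8.85, 8.65 and 8.78 in LPS+TMT, and 8.54, 8.56 and 8.54 in LPS. It fell 1.84-fold under TET (−0.88, SE 0.11, adjusted p = 9.9e-05), with a difference of 0.21 under TMT (adjusted p = 0.21). Of the 3 probe sets of Slc39a9, 2 were called lower under TET. The dimmer ones gave −0.11 (adjusted p = 0.48) and −0.40 (adjusted p = 0.013). The mean over all 3 was −0.46 (adjusted p = 9.9e-04). In the probe sets used for Slc39a13 and Slc39a9, LPS+TET lay below the other groups without overlap.

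Slc39a1 (ZIP1), a broadly expressed plasma membrane importer, read 11.89, 12.08 and 12.16 in LPS+TET, 12.69, 12.55 and 12.84 in LPS+TMT, and 12.77, 12.77 and 12.74 in LPS. All LPS+TET arrays lay below the other 6. It fell 1.64-fold under TET (−0.71, SE 0.10, adjusted p = 2.8e-04), and under TMT the difference was −0.061 (95% interval −0.29 to 0.17). Slc39a3 (ZIP3, another plasma membrane importer) was not called, with 0.14 under TET and 0.065 under TMT (adjusted p = 0.28 and 0.75). It was higher under TET after cyclic loess (0.42, adjusted p = 0.0051) and after quantile normalization was applied again (0.33, adjusted p = 0.021), and its second probe set was higher under TMT (0.35, adjusted p = 0.022). Slc39a12, known from brain, averaged 4.83 ± 0.44 in LPS+TET, 3.95 ± 0.15 in LPS+TMT and 3.80 ± 0.14 in LPS (SD, n = 3 each). It rose under TET (1.04, SE 0.19, adjusted p = 0.0014) at a signal not shown to lie above background, with both probe sets called. Mt4 and the averages of several dim marker lists were also higher in LPS+TET, while the dim Slc30a2, Slc30a8 and Slc30a10 were not called. Slc39a4 and Slc39a5, importers of gut and pancreas epithelia, lay below the median level of genes and were not called, though Slc39a4 passed under TET without LPS+TET replicate 3 (−0.38, adjusted p = 0.035).

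Both copper transporters moved with opposite signs under the 2 compounds. Slc31a1 (CTR1), the main copper importer of the cell surface, read 9.91, 10.20 and 10.20 in LPS+TET, 11.88, 11.58 and 12.06 in LPS+TMT, and 10.76, 10.79 and 10.83 in LPS. The 3 groups did not overlap, with LPS in the middle. Slc31a1 fell 1.62-fold under TET (−0.69, SE 0.13, adjusted p = 0.0015) and rose 2.06-fold under TMT (1.05, SE 0.13, adjusted p = 1.7e-04). Its second probe set gave −1.19 under TET and 1.15 under TMT (adjusted p = 3.5e-05 and 9.5e-05).

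Slc31a2 (CTR2), a related protein of endosomes and lysosomes, read 10.95, 11.29 and 11.32 in LPS+TET, 12.45, 12.24 and 12.47 in LPS+TMT, and 11.76, 11.75 and 11.76 in LPS. Again the groups did not overlap and LPS lay between. Slc31a2 fell 1.49-fold under TET (−0.57, SE 0.12, adjusted p = 0.0022) and rose 1.55-fold under TMT (0.63, SE 0.12, adjusted p = 0.0020). The difference of LPS+TET from LPS+TMT was −1.74 for Slc31a1 and −1.20 for Slc31a2 (adjusted p = 2.8e-06 and 1.4e-05). The second Slc31a2 probe set had the same signs and was not called, with −0.33 under TET and 0.61 under TMT (adjusted p = 0.22 and 0.061).

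Of the 3 magnesium transporters, 2 were called lower under TET and 1 higher under TMT, where 23.4% and 14.3% of all genes were. Slc41a2, a magnesium transporter of cell membranes, read 8.88, 9.01 and 8.87 in LPS+TET, 10.38, 10.15 and 10.29 in LPS+TMT, and 9.87, 9.97 and 9.96 in LPS. It fell 2.02-fold under TET (−1.01, SE 0.092, adjusted p = 1.1e-05) and rose 1.26-fold under TMT (0.34, SE 0.092, adjusted p = 0.019), and the groups did not overlap. The rise under TMT was not called without LPS+TMT replicate 1 (0.29, adjusted p = 0.087) or 3 (0.33, adjusted p = 0.057) or LPS replicate 1 (0.30, adjusted p = 0.080) or 3 (0.35, adjusted p = 0.052). Slc41a1, a sodium-driven magnesium exporter of the plasma membrane, read 7.05, 6.67 and 6.73 in LPS+TET, 7.43, 7.68 and 7.48 in LPS+TMT, and 7.49, 7.67 and 7.68 in LPS. All LPS+TET arrays lay below the other 6. It fell 1.74-fold under TET (−0.80, SE 0.12, adjusted p = 3.8e-04), and its difference under TMT was −0.086 (adjusted p = 0.70). Its second, dim probe set gave 0.29 under TET (adjusted p = 0.11), and the mean of both was −0.26 (adjusted p = 0.079). Slc41a3, linked to magnesium export from mitochondria, was not called in the probe set used (−0.028 under TET and −0.083 under TMT), and 1 of its 3 probe sets was called lower under TET (−0.59).

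**Figure D3:**
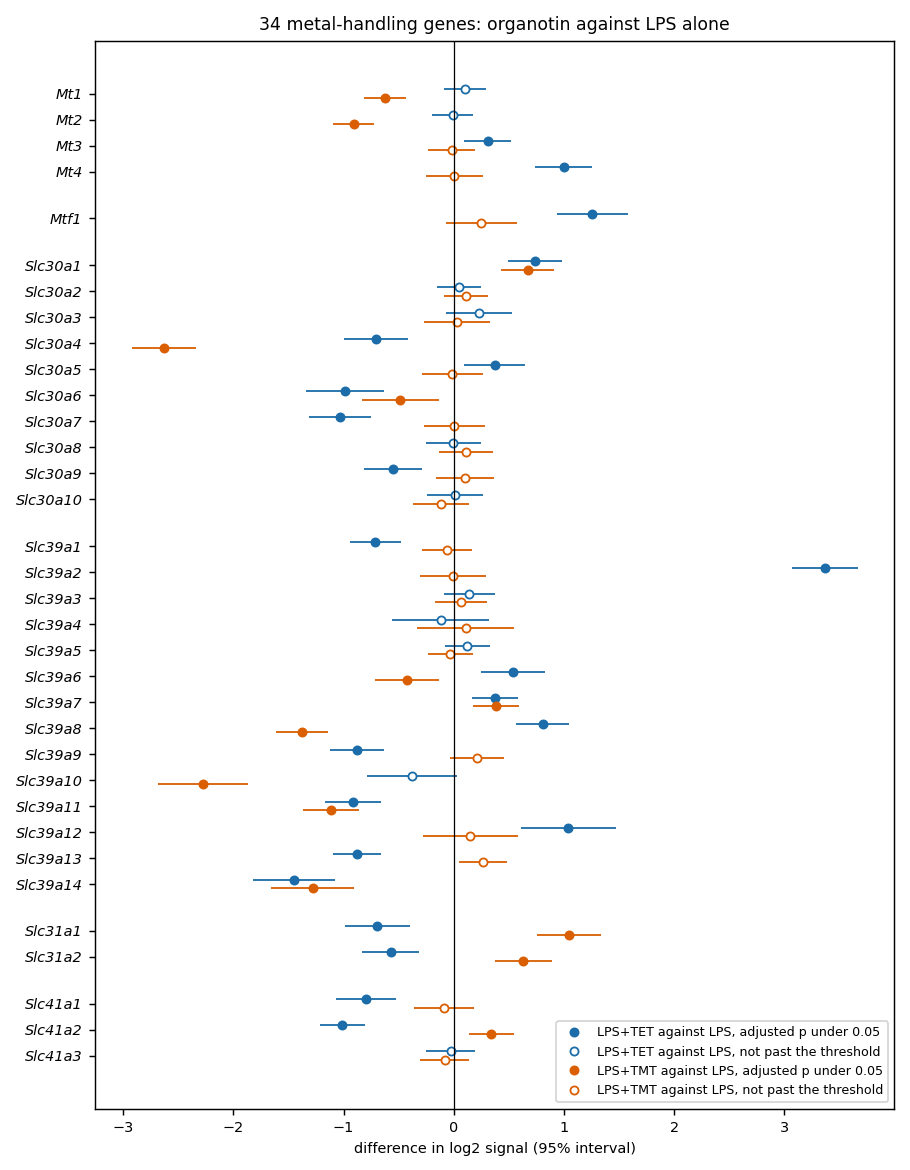
Difference in log2 signal of LPS+TET (blue) and LPS+TMT (orange) from LPS for all 34 genes (horizontal axis; bars are 95% intervals of the limma fit; filled points passed an adjusted p under 0.05). Slc39a2 under TET (3.37) and Slc30a4 under TMT (−2.63) lie farthest from 0, and the Slc31a genes lie on opposite sides of 0.

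Both comparisons share the LPS arrays, so the values of the members under TET and TMT are not independent of each other. In the direct comparison of LPS+TET with LPS+TMT, 22 of the 34 members were called, 12 higher and 10 lower, where 51.8% of all genes were called (28.1% higher and 23.7% lower). The arrays did not overlap in 23 members, where 57.0% of all genes did not. The metallothioneins were called higher in LPS+TET than in LPS+TMT in 4 of 4, with a median of 0.81 beside 0.11 over all genes. Of these, Mt1 was not called without probe sets that may bind related transcripts (0.23, adjusted p = 0.11), and Mt4 lies at a signal not shown to lie above background. The Slc31a genes were lower in 2 of 2. The exporters were split into 2 higher and 3 lower and the importers into 5 higher and 3 lower.

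Several probe sets measured 16 of the 34 members, and they serve as further readings of the same RNA, not as replicates. All probe sets of Slc39a14 (4), Slc39a8 (2), Slc39a10 (2), Slc31a1 (2), Mt1 (2) and Slc30a1 (2) were called with 1 sign under TMT. Under TET the probe sets of Mt1 spanned −1.24 to 0.10, those of Slc30a1 spanned 0.74 to 2.23, and those of Mtf1 spanned −0.035 to 1.26. Probe sets of 1 gene can read different transcript forms, and which form each reads was not tested.

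**Figure D4:**
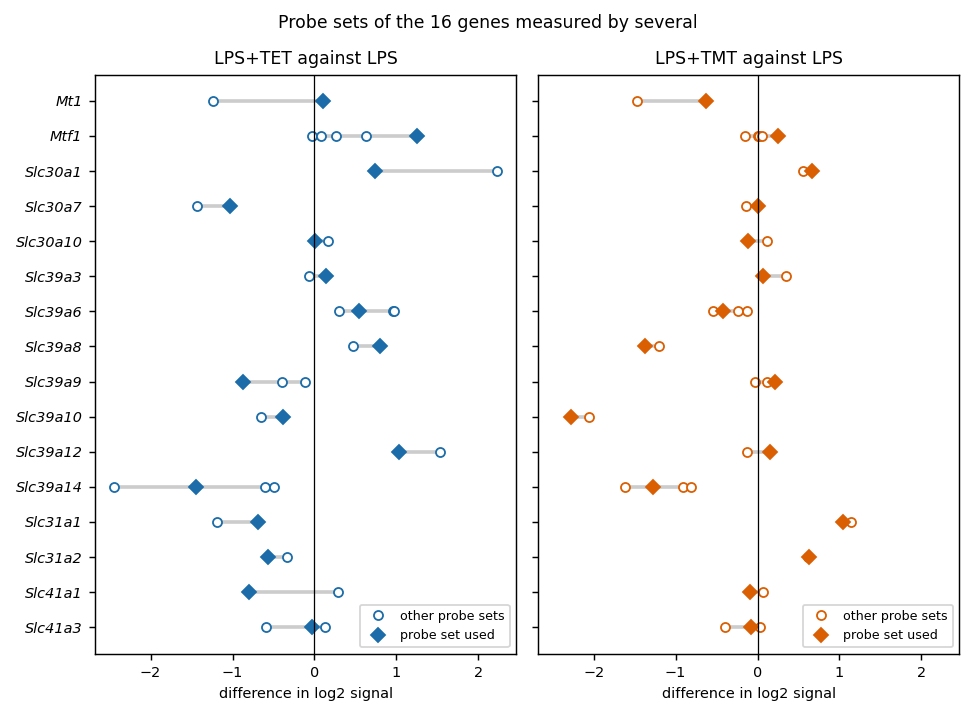
Difference in log2 signal from LPS (horizontal axis) for every probe set of the 16 genes with several, LPS+TET left and LPS+TMT right; diamonds are the probe sets used and open circles the others. Under TMT the 4 probe sets of Slc39a14 all lie left of 0, while under TET those of Mt1, Mtf1, Slc39a3, Slc41a1 and Slc41a3 lie on both sides of 0.

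Other genes of the same metals give the setting. The copper, magnesium and zinc lists were put together with earlier results of these data known. They are no independent evidence of a direction. Of 16 other copper genes, 4 were called higher and 2 lower under TET, and 3 higher and 6 lower under TMT. That is 37.5% of them called under TET, where 50.8% of all genes were, and 56.2% under TMT, where 27.8% were. Of the 13 copper genes at or above the median level, 46.2% were called under TET and 69.2% under TMT. Of all genes at that level, 64.9% and 46.2% were. Atp7a, the copper pump that exports copper from the cell or into the phagosome, was higher under TMT (0.80, SE 0.11, adjusted p = 3.5e-04), with −0.15 under TET (adjusted p = 0.30). Cox11, which delivers copper to cytochrome c oxidase, fell 6.96-fold under TET (−2.80, SE 0.10, adjusted p = 1.9e-08), with −0.26 under TMT (adjusted p = 0.082). Ccs, the copper chaperone of superoxide dismutase, was lower under both (−0.92 under TET and −0.64 under TMT, adjusted p = 1.2e-05 and 2.5e-04). Cp, encoding ceruloplasmin, a copper-containing ferroxidase, was higher under both (0.41 under TET and 1.17 under TMT, adjusted p = 0.012 and 2.8e-05). Steap4, a metalloreductase of iron and copper, was lower under TMT (−1.79, SE 0.16, adjusted p = 1.8e-05), with 0.25 under TET (adjusted p = 0.22). The probe sets of Cp and Steap4 may bind related transcripts.

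Of 14 other magnesium genes, 2 were called higher and 8 lower under TET, with a median of −0.62, and 0 higher and 3 lower under TMT, with a median of −0.14. Of all genes 27.4% were higher and 23.4% lower under TET, and 14.3% higher and 13.4% lower under TMT. The medians over all genes were 0.094 and 0.012. Of the 10 magnesium genes at or above the median level, 80% were called under TET and 20% under TMT. Of all genes at that level, 64.9% and 46.2% were. Cnnm2 is among these 10 only through LPS+TET. Trpm7, a channel and kinase that admits magnesium and zinc, was lower under both (−1.01 under TET and −0.48 under TMT, adjusted p = 4.3e-05 and 0.0082). Nipa2 and Nipa1, magnesium transporters, fell under TET by 1.15 and 1.22 on the log2 scale (adjusted p = 1.5e-05 and 2.1e-04), with −0.12 and −0.38 under TMT (adjusted p = 0.50 and 0.13). Cnnm2, a mediator of magnesium transport, rose 3.29-fold under TET (1.72, SE 0.19, adjusted p = 3.8e-05) from a signal not shown to lie above background, with −0.51 under TMT (adjusted p = 0.070).

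Of 9 other genes of zinc binding and divalent metal transport, 3 were called higher and 2 lower under TET, and 1 higher and 3 lower under TMT. That is 55.6% and 44.4% of them, where 50.8% and 27.8% of all genes were called. Of the 6 at or above the median level, 50% were called under either compound. Of all genes at that level, 64.9% were called under TET and 46.2% under TMT. Slc11a1 (NRAMP1), which removes divalent metals from the phagosome, was higher under TMT (0.81, SE 0.083, adjusted p = 4.0e-05), with −0.18 under TET (adjusted p = 0.093). S100a9, a subunit of the zinc-binding protein calprotectin, was lower under both (−1.66 under TET and −1.70 under TMT, adjusted p = 1.2e-05 and 1.8e-05). It is abundant in neutrophils too, whose marker list also averaged lower in both organotin groups than in LPS. That list did not move as one. Under TET Camp, Ngp and Ltf were called lower and Prtn3 higher (0.34, adjusted p = 0.019). Under TMT Mpo, Ngp and Ltf were called lower. A part of neutrophils in the S100a9 difference was not tested. S100a8, the partner of S100a9, was not called (−0.33 under TET and 0.45 under TMT, adjusted p = 0.098 and 0.052), and its probe set may bind related transcripts. Tmem163, a zinc efflux protein, was higher under TET (0.80, SE 0.13, adjusted p = 7.0e-04), with 0.10 under TMT (adjusted p = 0.68). Tmc6, whose human product binds ZnT1, was lower under both (−0.72 under TET and −0.75 under TMT, adjusted p = 4.4e-04 and 5.6e-04). Tmem163 and Tmc6 lay below the median level of genes in every group, at signals not shown to lie above background.

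Of 7 further genes reported as MTF-1 targets, some of them in other species, 6 were called higher and 0 lower under TET, where 27.4% of all genes were higher, and 1 was called higher and 2 lower under TMT, where 14.3% were higher and 13.4% lower. Their median was 0.87 under TET and −0.17 under TMT, beside 0.094 and 0.012 over all genes. This list was put together with earlier results of these data known and is no independent evidence of a direction. Slc40a1, encoding the iron exporter ferroportin, read 9.96, 9.87 and 9.86 in LPS+TET, 6.38, 6.58 and 5.98 in LPS+TMT, and 6.33, 6.09 and 5.93 in LPS. It rose 13.7-fold under TET (3.78, SE 0.15, adjusted p = 4.7e-08), with 0.20 under TMT (adjusted p = 0.43). Pgf, encoding placental growth factor, rose 5.85-fold (2.55, SE 0.12, adjusted p = 8.7e-08), and Hamp, encoding the iron hormone hepcidin, 5.57-fold (2.48, SE 0.25, adjusted p = 2.2e-05). Slc40a1 and Pgf reached the median level of genes only through LPS+TET, so their folds start from signals not shown to lie above background, and the probe sets of Hamp and Ndrg1 may bind related transcripts. Under TMT Pgf and Hamp were at −0.18 and −0.81 (adjusted p = 0.32 and 0.034). Ndrg1, a hypoxia-responsive gene, rose 1.82-fold under TET (0.87, SE 0.11, adjusted p = 8.4e-05) and under TMT had a fall of 2.14-fold (−1.09, SE 0.11, adjusted p = 2.9e-05). These genes have other regulators too, and which of them acted here was not tested.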

How the data were processed

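RNA of 9 samples was amplified and put on Affymetrix mouse arrays after biotin labelling, per the labels' protocols. The authors deposited 1 log2 signal per probe set and array, made with RMA and affy per the submitters' processing notes. The base of the logarithm was taken from the values (2.05 to 14.8), and a joint or separate RMA run is not stated by the sources at hand. The number of arrays limits the precision.

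Of 45037 probe sets, 34945 named 1 gene in the platform annotation, 932 several and 9160 none. The single-gene probe set with the highest mean over the 9 arrays stood for each of 18193 genes. The members had 59 such probe sets. Symbols were updated through RefSeq (GRCm38.p6), which lacked the gene identifiers of 204 probe sets. Promoter sequences are from RefSeq.

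Differences were fitted with limma 3.58.1 in R 4.3.3 (1 mean per group, all 9 arrays, 6 residual and 3.99 prior degrees of freedom, Benjamini-Hochberg over 18193 genes) and tested on simulated data. Every member is named, and arrays are given one by one for members called in a comparison with LPS and at or above the median level. Of other metal lists, the text names up to 4 genes with the smallest adjusted p, plus Atp7a, Trpm7, Slc11a1, S100a8 and S100a9. The members and lists were chosen with earlier results of these data known. Alternatives were each array left out, a replicate block, bright genes alone, 3 further scalings (quantile normalization, median centring and cyclic loess), the mean over probe sets, no probe sets that may bind related transcripts, array weights, trended robust moderation and the 6 arrays of each comparison alone. Values of further probe sets are from a fit over all single-gene probe sets, adjusted over these and added after seeing the data.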

Additional observations from a re-analysis of the deposited data

How the results depend on the processing

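Of the member calls, 19 of 23 for TET against LPS, 11 of 14 for TMT against LPS and 18 of 22 for TET against TMT kept their sign and passed under every alternative that gave them a value. The others were Mt3, Slc30a5, Slc30a9 and Slc41a1 under TET, Slc30a6, Slc39a6 and Slc41a2 under TMT, and Slc30a5, Slc30a6, Slc41a1 and Mt1 between the compounds. Of the last comparison, Slc30a5 (0.39) ran from 0.30 to 0.36 and did not pass without LPS+TMT replicate 1 or 3 or LPS+TET replicate 2 or 3 (adjusted p = 0.066 to 0.078), and Slc30a6 (−0.50) from −0.48 to −0.33 without LPS+TMT replicate 1 or 3 or LPS+TET replicate 1 (adjusted p = 0.060 to 0.086). Mt1 under TET turned from 0.10 to −0.57 with the mean over its probe sets and to −1.24 without probe sets that may bind related transcripts. Leaving out 1 array gave 21 to 23 members called for TET against LPS, 11 to 14 for TMT against LPS and 20 to 22 for TET against TMT. Over all genes it gave 7540 to 9372, 3971 to 5522 and 8006 to 9232 calls, against 9247, 5049 and 9425 with all arrays. Array weights raised the calls of TMT against LPS to 8756 genes and 20 members. Bright genes alone, with fewer genes tested, gave 6066 calls for TET against LPS and 6270 for TET against TMT. After median centring, 3742 genes were higher and 4782 lower for TET against LPS, beside 4982 and 4265 as deposited, and the scalings moved the median of all genes by under 0.1. No source states that same-numbered replicates were paired. Correlations of deviations between same-numbered arrays ran from −0.15 to 0.31. Between LPS+TMT and LPS they were 0.16, 0.31 and 0.020 for replicates 1, 2 and 3. Each array deviated most like its own number in 0, 4 and 2 of 6 cases for TET against LPS, TMT against LPS and TET against TMT. With 3 arrays a group these values cannot show whether same-numbered arrays shared a batch. The replicate block gave 23, 13 and 22 members called, without Slc30a6 under TMT (adjusted p = 0.073), and changed no other member call. No value marks the background of an array, so signals below the median level may understate folds.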
